A study of Oncorhynchus mykiss with 6 samples.

Results

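Among the small RNA entries listed for dorsal skin of rainbow trout, 64 of 1426 carried 1 of 7 miRNA names, miR-6236, miR-6240, miR-11987, miR-11980, miR-1260, miR-2478 or miR-4454, in any arm or length variant. Entries with the same counts in every library were taken as 1 item, which left 42 of 1066 items. By number there were 3 items for miR-6236 (19 entries), 18 for miR-6240 (24 entries), 5 each for miR-11987 and miR-2478, 3 for miR-11980, 7 for miR-1260 and 1 for miR-4454. The entries were chosen by name, with earlier results of these data known. One of the 24 miR-6240 entries held the same counts as a miR-2478 entry and was counted with miR-2478. In names such as bta-miR-11987_L-1R-1_1ss8TA the prefix is the species of the matching database miRNA, L and R give bases lost or gained at the left and right end, and ss marks a base change.

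MicroRNAs are cut from hairpin precursors by Drosha and Dicer, have fairly fixed ends, and pair with target mRNAs mainly through the seed near the 5′ end. Ribosomal RNA, the core of the ribosome, and transfer RNA, which carries amino acids, are far more abundant, and their pieces enter small RNA libraries both as breakdown products and as fragments cut in cells, among them fragments from the 3′ end of tRNA. Every mature tRNA ends in the added bases CCA. Database miRNAs with these 7 numbers are known for resembling such pieces, rRNA for miR-6236, miR-6240, miR-11987 and miR-11980 and the 3′ end of tRNA for miR-1260, miR-2478 and miR-4454. No rRNA or tRNA sequence was used here, so the resemblance was not tested. Only the ends, lengths and overlaps of the listed sequences are described. Entries got their names by sequence match, so these features come partly with the names. Genome positions are not given.

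The comparison set YR_S, yellow mutant trout, against WR_S, wild-type trout, with 3 libraries of dorsal skin in each, to look for RNAs that differ between skins of unlike colour. All fish were female, 12 months post hatching, and kept in the same pond. The labels name no gene or allele for the yellow colour, and the skins are known to differ in their pigment cells, the black melanocytes and the yellow xanthophores. Each library came from 1 skin, and p-values measure the spread between these libraries. Whole skin holds many cell types, so fewer cells of a type and less RNA per cell cannot be told apart.

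Summed counts were 1442631 in YR_S replicate 1, 4375641 and 4388665 in the other YR_S libraries, and 4477917 to 5089802 in WR_S. Levels are counts scaled to 1e6 per library (CPM), with library sizes adjusted by TMM factors, and a count of 3 stood for 1.95 CPM in YR_S replicate 1 and elsewhere for 0.578 to 0.765 CPM. Intervals cover counting error only. Epithelial markers (30 entries, miR-200, miR-203 and miR-205 among them) summed to 20205 to 31755 CPM, skeletal muscle markers (16 entries) to 1923 to 12398 CPM and the liver marker miR-122 to 2.93 to 1702 CPM, highest in WR_S replicate 3. The groups overlapped in each of these lists.

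The sequences fell into 2 kinds. Entries of miR-6236, miR-6240, miR-11987 and miR-11980 overlapped one another as shifted pieces of joined stretches, which for miR-11987 and miR-11980 are no longer than their longest entry. The miR-2478 entries also overlapped in this way, 4 of them within 22 bases, but are shown with those they share an end with. The stretches below were joined from entries above 0 in all 6 libraries by exact overlaps of at least 8 bases. Where entries of distinct sequence share their counts, as in miR-6236, these do not show that each sequence was read in every library. First and last positions are therefore those of the listed sequences. They are shown because each miR-6236 and miR-6240 stretch is longer than any entry it contains.
miR-6236 stretch: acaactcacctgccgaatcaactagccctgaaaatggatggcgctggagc
miR-6240 first stretch: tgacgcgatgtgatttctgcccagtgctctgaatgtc
miR-6240 second stretch: acaaagcatcgcgaaggcccaagg
miR-11987 stretch: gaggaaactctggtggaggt
miR-11980 stretch: agggaacgggcttggcgga
The miR-6236 stretch of 50 bases contained 18 of 19 entries, which began at 14 positions and ended at 8. The first miR-6240 stretch of 37 bases contained 15 of 24 entries, with 11 first and 7 last positions, and the second, of 24 bases, contained 3. Names of the 5′ and 3′ arm (p5 and p3), which in a hairpin lie apart, were mixed along the miR-6236 and the first miR-6240 stretch. In miR-6236, 2 sequences were each listed under both arms, 1 as p5_1 and p3_2 and the other as p5_2 and p3_3.

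**Figure D1:**
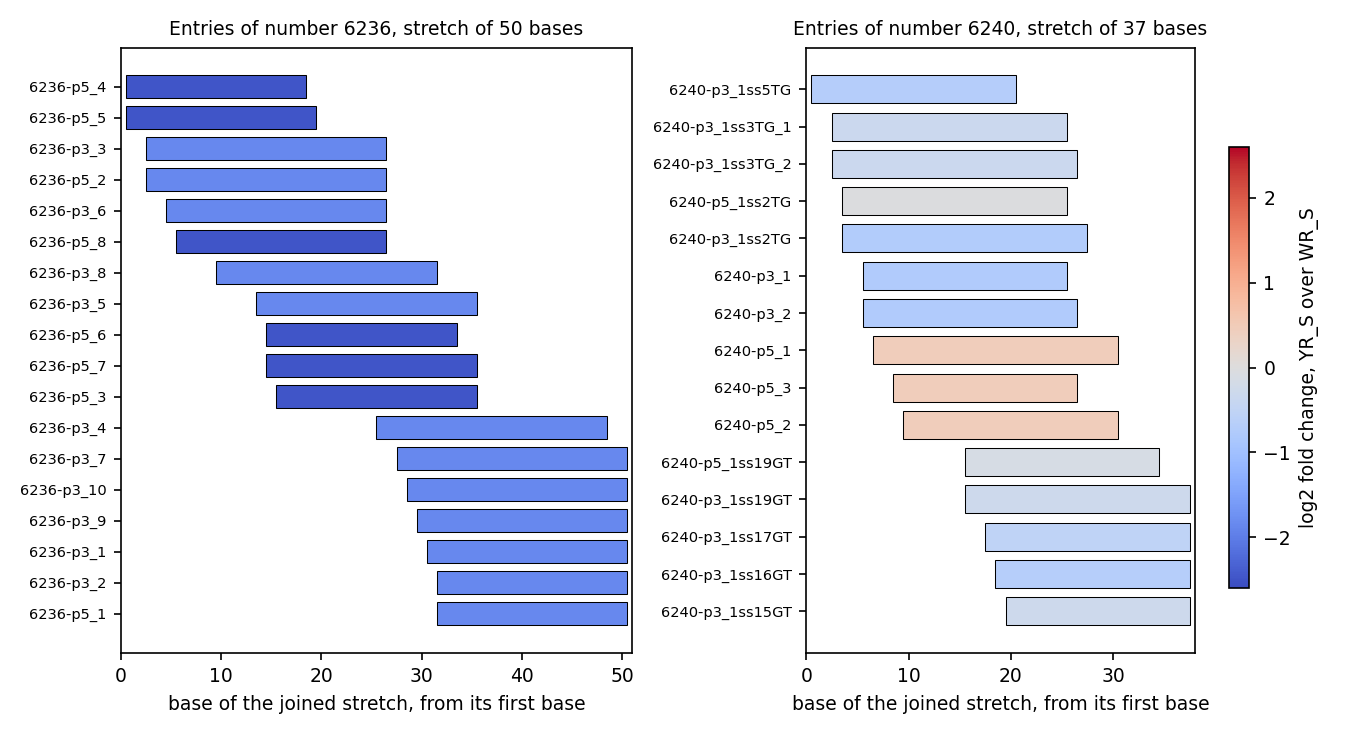
Each bar is an entry placed by its first and last base on the joined stretch (horizontal axis, bases), for miR-6236 on the left (18 entries, 50 bases) and miR-6240 on the right (15 entries, 37 bases), and colour is the log2 fold change, YR_S over WR_S. Bars of the same colour within miR-6236 are entries with identical counts: the 12 entries with -1.87 and the 6 with -2.49 interleave along the stretch.

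Entries of miR-1260, miR-2478 and miR-4454 shared an end. The most abundant ones were 18 bases long and finished with CCA, the end of a mature tRNA, shown in capitals.
cgr-miR-1260_1ss13CT: atcccaccgctgtcaCCA
cgr-miR-1260: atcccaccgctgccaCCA
cgr-miR-1260_1ss6AG: atcccgccgctgccaCCA
bta-miR-2478_L-2: atcccacttctgacaCCA
hsa-miR-4454_L-2_1ss8AG: atccgggtcacggcaCCA
The end CCA was present in 5 of 7 entries of miR-1260, 4 of 5 of miR-2478 and the entry of miR-4454. In all, 10 of 64 entries (15.6%) ended so, against 32 of 1362 other entries (2.35%), and none of miR-6236, miR-6240, miR-11987 or miR-11980 did.

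The entries were short. Their median length was 20 bases (range 18 to 25), against 22 (18 to 26) among the other entries, and 37 of 64 (57.8%) were at most 20 bases long, against 10.8%. Length 18, the shortest listed, held 14 entries (21.9%), against 2.20% of the others, whereas the others peaked at 22 bases (45.6%), the usual miRNA length. Median GC content was 54.5%, against 45.5%. The 62 distinct sequences had 44 different seeds (bases 2 to 8), and no other entry shared a run of 14 bases with any of them. Entries are not independent, so these shares are descriptions without a test.

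**Figure D2:**
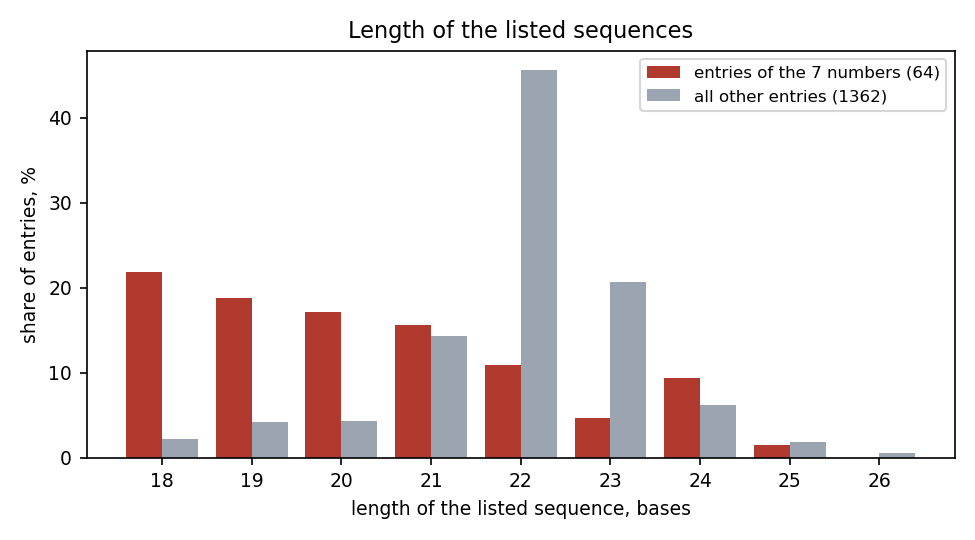
Share of entries (vertical axis, %) by length of the listed sequence (horizontal axis, bases), for the 64 entries of the 7 numbers and the 1362 other entries. The 64 entries are spread from 18 to 25 bases with 21.9% at 18, and the others stand mostly at 22 (45.6%) and 23 (20.7%).

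Together the items summed to 1286, 764 and 952 CPM in YR_S replicates 1, 2 and 3, against 1088, 870 and 1206 CPM in WR_S. The groups overlapped, and the log2 ratio of the means was -0.08. Adding every entry, identical counts included, gave -0.22 for the total, and for miR-6236 -1.95 against -2.08. The level of the miR-6236 sum depends on this choice, since 12 of its entries share 1 set of counts. The numbers differed in direction within that total. Sums of miR-11987 stood higher and sums of miR-6236 lower in all YR_S libraries than in any WR_S library, and the other 5 sums overlapped between groups.

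**Figure D3:**
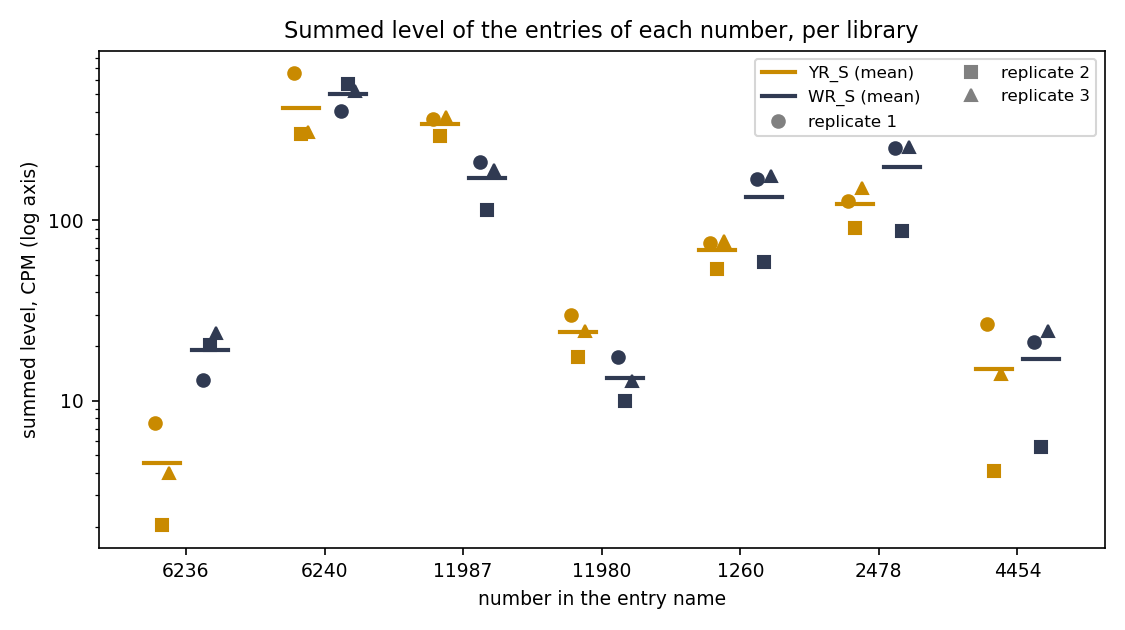
Summed level per library (vertical axis, CPM, log scale) of the items of each number (horizontal axis), with YR_S left of WR_S; points are libraries and lines are group means. The miR-11987 sums are 294 to 372 CPM in YR_S skins and 115 to 212 CPM in WR_S, and the miR-6236 sums 2.04 to 7.49 CPM in YR_S skins and 13.002 to 23.6 CPM in WR_S.

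Of the 42 items, 35 were above 0 in at least 3 libraries and were tested, and 31 were above 0 in all. The 7 untested items were at 0 in every YR_S library and reached at most a count of 9 in WR_S. Of these, 3 were of miR-1260, 2 of miR-6240, and 1 each of miR-6236 and miR-2478. The share of such items over the table was not counted, and the study also reported more miRNAs found only in WR_S than only in YR_S. At the study's thresholds (a log2 fold change of 1 or more in size, with an unadjusted p below 0.05), edgeR called 6 of the 35 items (17.1%), against 68 of 914 items with distinct counts over the whole table (7.44%). Higher in YR_S were 2 (1.97% over the table) and lower 4 (5.47% over the table). None had an adjusted p below 0.05, as in the whole table (0%), whereas 6 had an unadjusted p below 0.05 (9.85% over the table). DESeq2 at an adjusted p below 0.05 called 2 of the 35, bta-miR-11987_L-1R-1_1ss8TA and mmu-mir-6236-p5_8, against 3.06% over the table. Its adjustment ran over entries and not items, so all 6 entries with the counts of mmu-mir-6236-p5_8 (adjusted p = 0.0475) entered it. The groups did not overlap for 6 items with YR_S above (8.32% over the table) and 3 with YR_S below (8.1% over the table). Among the items counted as lower and as not overlapping, cgr-miR-1260_R+2_1ss13CT was at 0 in every YR_S library. It met the filter only through WR_S, which fixed its direction in advance. The median log2 fold change was -0.39, with 11 items above 0 and 24 below, and -0.04 over the 914. Without the shallow YR_S replicate 1, edgeR called 1 item higher (1.31% over the table without that library) and 8 lower (7.55% over the table without it). The 8 included mmu-mir-6236-p3_10, mmu-mir-6236-p5_8, cgr-miR-1260_1ss6AG and cgr-miR-1260_R+2_1ss13CT, and the rest were not followed one by one.

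**Figure D4:**
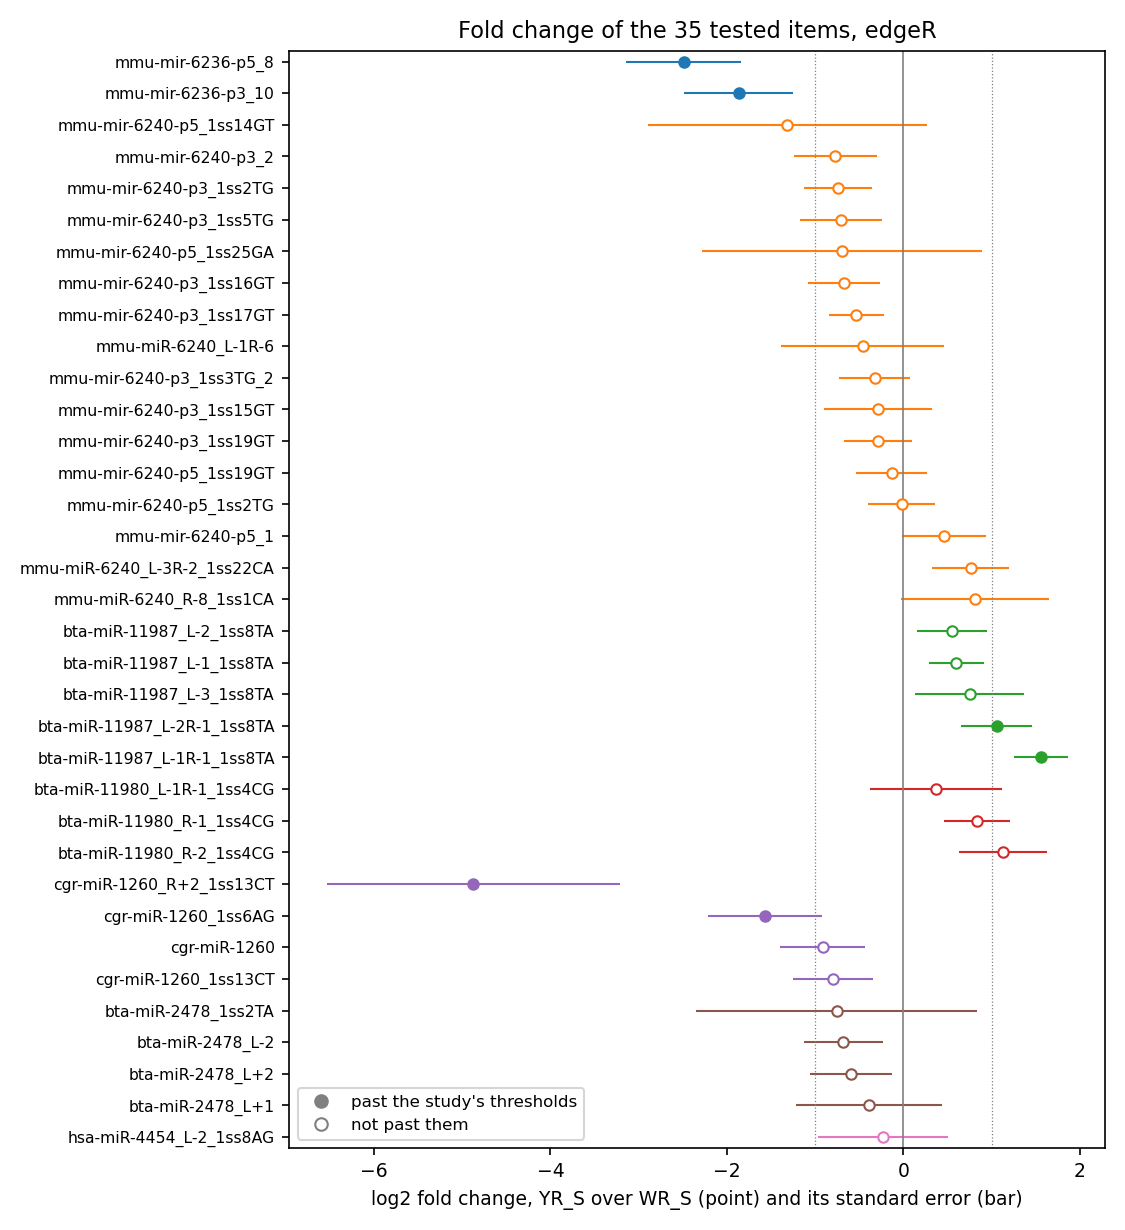
Log2 fold change, YR_S over WR_S, from edgeR (horizontal axis) with its standard error (bars) for the 35 tested items, grouped by number from miR-6236 at the top to miR-4454 at the bottom and coloured by number. Filled points passed the study's thresholds (6 items); all items of miR-11987 and miR-11980 lie above 0 and all of miR-6236, miR-1260, miR-2478 and miR-4454 below. The value of cgr-miR-1260_R+2_1ss13CT, at 0 in all YR_S libraries, depends on the prior count of the fit.

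The 5 entries of miR-11987, a miRNA name from cattle, differ only at their ends, and their seeds (capitals, bases 2 to 8) shift with the first base.
bta-miR-11987_L-1_1ss8TA: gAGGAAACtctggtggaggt
bta-miR-11987_L-1R-1_1ss8TA: gAGGAAACtctggtggagg
bta-miR-11987_L-2R-1_1ss8TA: aGGAAACTctggtggagg
bta-miR-11987_L-2_1ss8TA: aGGAAACTctggtggaggt
bta-miR-11987_L-3_1ss8TA: gGAAACTCtggtggaggt
The entry bta-miR-11987_L-1R-1_1ss8TA, which the study placed in its lncRNA network, had 130, 119 and 183 CPM in YR_S replicates 1, 2 and 3, against 56.4, 36.4 and 53.9 CPM in WR_S. Every YR_S library was above every WR_S library, and it rose at the study's thresholds (log2 fold change 1.55 ± 0.31 SE, unadjusted p = 0.000943 and adjusted p = 0.233 with edgeR, higher in 3 of 3 YR_S libraries). DESeq2 gave 1.51 ± 0.33 with an adjusted p of 0.000913. Leaving out each library gave 1.16 to 1.68, past the thresholds each time.

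The other miR-11987 entry to pass, bta-miR-11987_L-2R-1_1ss8TA, had 63.5, 43.1 and 37.3 CPM in YR_S skins, against 31.4, 13.4 and 24.2 CPM in WR_S, without overlap (1.05 ± 0.40, unadjusted p = 0.0303, adjusted p = 0.378 with edgeR). Its value lay close to the fold threshold. It no longer passed without WR_S replicate 2 (0.78) or without YR_S replicate 1 (0.70). With edgeR it also failed, on p and not on the fold, without WR_S replicate 3 (1.09, unadjusted p = 0.0506) and without YR_S replicate 3 (1.02, unadjusted p = 0.0616). Nor did it pass under DESeq2, limma, the filter at 1 library or with identical counts taken once (0.94 to just under 1). The entry bta-miR-11987_L-1_1ss8TA, which spans the whole joined stretch, was the most abundant of these entries in WR_S but not on average in YR_S. It had 138, 108 and 135 CPM in YR_S skins, against 102, 54.5 and 95.2 CPM in WR_S, also without overlap, and did not pass (0.60 ± 0.31, unadjusted p = 0.089, adjusted p = 0.607 with edgeR). The remaining pair, scarcer, overlapped between groups, with log2 fold changes of 0.55 for bta-miR-11987_L-2_1ss8TA and 0.75 for bta-miR-11987_L-3_1ss8TA.

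Both miR-11987 entries that passed lack the last base of the stretch, and the 3 that did not pass have it. The share of miR-11987 counts without that base depends on no scaling between libraries, although it does depend on how the authors divided reads. It was 52.9% (95% Clopper-Pearson interval 48.6 to 57.1), 55.1% (52.2 to 58.1) and 59.0% (56.6 to 61.5) in YR_S replicates 1, 2 and 3. In WR_S it was 41.5% (38.5 to 44.4), 43.4% (39.1 to 47.6) and 41.1% (37.9 to 44.4). The means were 55.7% ± 3.09 in YR_S and 42.0% ± 1.24 in WR_S (SD, n = 3 each), and no YR_S library overlapped a WR_S library. This split of the entries was chosen after their values were seen and has no test. For miR-11980, whose counts were fewer, the corresponding share was 23.6% ± 2.93 in YR_S and 18.5% ± 2.69 in WR_S (SD, n = 3 each). Every YR_S share (21.7, 27.007 and 22.2%) lay above every WR_S share (15.4, 20.2 and 19.8%), but the intervals of single libraries overlapped.

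**Figure D5:**
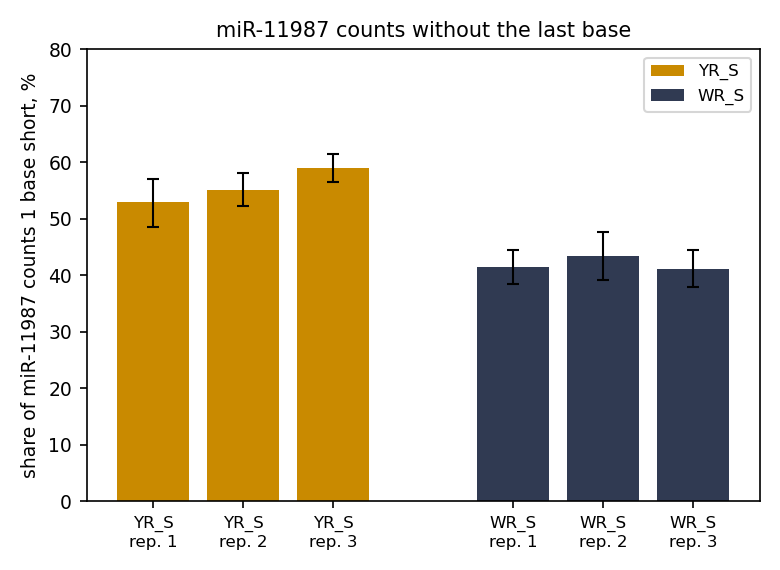
Share of the miR-11987 counts in entries that lack the last base of the stretch (vertical axis, %) in each library, YR_S left and WR_S right; bars are single libraries and whiskers their 95% Clopper-Pearson intervals. The YR_S bars stand at 52.9 to 59.0% and the WR_S bars at 41.1 to 43.4%.

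Entries of miR-11980, also named from cattle, were scarcer, and none passed the thresholds. Their ends vary as those of miR-11987 do, with the seed again in capitals.
bta-miR-11980_R-1_1ss4CG: aGGGAACGggcttggcgga
bta-miR-11980_R-2_1ss4CG: aGGGAACGggcttggcgg
bta-miR-11980_L-1R-1_1ss4CG: gGGAACGGgcttggcgga
The most abundant, bta-miR-11980_R-1_1ss4CG, had 16.3, 11.0 and 14.9 CPM in YR_S skins, against 9.44, 6.58 and 7.41 CPM in WR_S, without overlap (0.84 ± 0.37, unadjusted p = 0.0544, adjusted p = 0.496 with edgeR). bta-miR-11980_R-2_1ss4CG had 6.51, 4.72 and 5.42 CPM in YR_S skins, against 2.70, 2.02 and 2.54 CPM in WR_S. These groups did not overlap either (1.13 ± 0.50, unadjusted p = 0.0532, adjusted p = 0.489 with edgeR), and without YR_S replicate 2 the entry passed the study's thresholds (1.24, unadjusted p = 0.0397), as it did with the filter at a mean count of 10 (1.08, unadjusted p = 0.0461). bta-miR-11980_L-1R-1_1ss4CG overlapped between groups (0.37 ± 0.75), and its sign turned without YR_S replicate 1 (-0.20).

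The miR-6236 entries, named from mouse, carried only 3 sets of counts. One set was shared by 12 entries with 10 distinct sequences and is named here by mmu-mir-6236-p3_10, and another by 6 entries with 6 sequences, named by mmu-mir-6236-p5_8. The sequences below, with seeds in capitals, show how far apart entries of 1 set can lie: the first 3 belong to the first set and the last pair to the second.
mmu-mir-6236-p3_10: tGAAAATGgatggcgctggagc
mmu-mir-6236-p3_2: aAATGGATggcgctggagc
mmu-mir-6236-p3_3: aACTCACCtgccgaatcaactagc
mmu-mir-6236-p5_8: tCACCTGCcgaatcaactagc
mmu-mir-6236-p5_4: aCAACTCAcctgccgaat
The first set, which includes the entries p3_1, p3_2, p3_3 and p5_1 that the study placed in its networks, had 6.18, 1.28 and 2.29 CPM in YR_S skins, against 8.67, 11.8 and 13.7 CPM in WR_S. Every YR_S library was below every WR_S library, and the set fell at the study's thresholds (log2 fold change -1.87 ± 0.62 SE, unadjusted p = 0.0166, adjusted p = 0.273 with edgeR). The change was larger without YR_S replicate 1 (-2.68), whose value came from a count of 9.5. The second set had 1.30, 0.765 and 1.69 CPM in YR_S skins, against 3.56, 8.18 and 9.95 CPM in WR_S, and fell too (-2.49 ± 0.65, unadjusted p = 0.00494, adjusted p = 0.233 with edgeR, lower in 3 of 3 YR_S libraries). DESeq2 gave -2.58 ± 0.82 with an adjusted p of 0.0475, close to 0.05. That adjustment ran over entries, so each of the 6 entries of this set entered it. DESeq2 was not run with identical counts taken once, so whether the set would still pass is not known. Both sets passed the study's thresholds with every library left out in turn. Counts behind the YR_S values were 2 to 9.5 per library. The third item, mmu-mir-6236-p3_1ss24AT, had counts of 4 and 2 in WR_S replicates 1 and 2 and 0 elsewhere and was not tested. Since 12 entries rest on 1 set of counts, they amount to 1 measurement.

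The miR-6240 entries, also named from mouse, had the highest mean sum of the 7 numbers in both groups, although miR-11987 exceeded it in YR_S replicate 3 (372 against 309 CPM). Their sum overlapped between the groups. The first 3 sequences below are the most abundant of these entries and the last 3 share 1 set of counts, with seeds in capitals.
mmu-mir-6240-p5_1ss19GT: tCTGCCCAgtgctctgaat
mmu-mir-6240-p5_1ss2TG: cGCGATGTgatttctgcccagt
mmu-mir-6240-p3_1ss17GT: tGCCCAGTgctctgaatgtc
mmu-mir-6240-p5_1: gATGTGATttctgcccagtgctct
mmu-mir-6240-p5_2: gTGATTTCtgcccagtgctct
mmu-mir-6240-p5_3: tGTGATTTctgcccagtg
The sum was 654, 302 and 309 CPM in YR_S skins, against 403, 574 and 524 CPM in WR_S, and YR_S replicate 1, the shallow library, was the highest of all. Without it the log2 ratio of the means was -0.71, against -0.25 with it. Of 16 tested items 13 had a fold change below 0 and 3 above, and none passed the thresholds with all libraries included. Without YR_S replicate 1 the 3 most abundant did not pass either (-0.76, -0.59 and -0.89). The other miR-6240 items were not followed one by one in that fit, so calls among them are not excluded.

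The leading entry, mmu-mir-6240-p5_1ss19GT, had 212, 88.6 and 91.5 CPM in YR_S skins, against 111, 181 and 137 CPM in WR_S (-0.13 ± 0.40). The next, mmu-mir-6240-p5_1ss2TG, had 134, 60.8 and 61.5 CPM in YR_S skins, against 68.9, 104 and 85.8 CPM in WR_S (-0.02 ± 0.38). In both, YR_S replicate 1 exceeded every WR_S library and the other YR_S libraries lay below all of them. For mmu-mir-6240-p3_1ss17GT YR_S replicate 1 lay within the WR_S range and the other YR_S libraries below it, with 71.9, 43.5 and 45.1 CPM in YR_S skins, against 62.4, 82.2 and 86.2 CPM in WR_S (-0.53 ± 0.31, unadjusted p = 0.124, adjusted p = 0.658 with edgeR). Signs differed along the first stretch: the 3 entries sharing the counts of mmu-mir-6240-p5_1 had a fold change of 0.46 ± 0.48 and the entries around them values below 0. Over all 16 the fold changes ran from -1.32 to 0.81. In the second stretch mmu-miR-6240_L-3R-2_1ss22CA stood higher in every YR_S library, with 13.02, 9.18 and 8.56 CPM, against 7.03, 3.82 and 7.31 CPM in WR_S, but did not pass (0.76 ± 0.44, unadjusted p = 0.118, adjusted p = 0.658 with edgeR).

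Ratios between numbers within a library are free of any scaling factor. Per 100 CPM of miR-6240 there were 55.7, 97.5 and 120 CPM of miR-11987 in YR_S, against 52.6, 19.996 and 36.2 CPM in WR_S. For miR-6236 the ratio was 1.14, 0.676 and 1.29 in YR_S, against 3.23, 3.55 and 4.51 in WR_S. Neither ratio overlapped between the groups, although YR_S replicate 1 and WR_S replicate 1 lay close together in the ratio of miR-11987. The ratio of miR-11987 to miR-11980 overlapped between the groups, with 1217, 1683 and 1522 CPM of miR-11987 per 100 CPM of miR-11980 in YR_S, against 1208, 1149 and 1483 CPM in WR_S. These ratios were chosen after the sums were seen and have no test.

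The sums of miR-1260, miR-2478 and miR-4454, most of whose entries end in CCA, had lower means in YR_S, with a wide spread between libraries of each group. The miR-1260 sums were 74.5, 53.8 and 76.9 CPM in YR_S skins, against 171, 59.0 and 177 CPM in WR_S. The miR-2478 sums were 129, 90.9 and 151 CPM in YR_S skins, against 251, 87.0 and 254 CPM in WR_S. The miR-4454 entry had 26.7, 4.08 and 13.98 CPM in YR_S skins, against 21.2, 5.52 and 24.4 CPM in WR_S. For each of the 3 numbers replicate 2 was the lowest library of both YR_S and WR_S. All 9 tested items of these 3 numbers had a fold change below 0, against 482 of 914 items over the table. Most are length or base variants of the same name, so they are not 9 independent measurements. Of the 9, 2 passed the thresholds as lower (5.47% over the table). The item cgr-miR-1260_R+2_1ss13CT, counted in both, does not end in CCA. It was at 0 in every YR_S library, so its sign followed from the filter.

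The most abundant of these, bta-miR-2478_L-2, had 124, 85.4 and 140.8 CPM in YR_S skins, against 238, 76.7 and 245 CPM in WR_S (-0.68 ± 0.45, unadjusted p = 0.168, adjusted p = 0.727 with edgeR). Without WR_S replicate 2 it passed the study's thresholds (-1.05, unadjusted p = 0.0125). The same held for cgr-miR-1260_1ss13CT, with -0.80 ± 0.45 in all libraries and -1.17 without WR_S replicate 2, and for cgr-miR-1260, with -0.92 ± 0.48 and -1.27. The longer bta-miR-2478_L+2 had 3.58, 4.72 and 8.92 CPM in YR_S skins, against 10.8, 8.18 and 7.94 CPM in WR_S (-0.59 ± 0.46), and passed without YR_S replicate 3 (-1.25). The scarce bta-miR-2478_L+1 (at most 1.63 CPM) had -0.39 ± 0.82, and hsa-miR-4454_L-2_1ss8AG had -0.23 ± 0.74.

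Of the entries that passed, cgr-miR-1260_1ss6AG had 17.6, 3.70 and 9.16 CPM in YR_S skins, against 30.2, 13.3 and 43.1 CPM in WR_S. It fell at the study's thresholds (-1.57 ± 0.64, unadjusted p = 0.0407, adjusted p = 0.442 with edgeR), although YR_S replicate 1 was above WR_S replicate 2. It no longer passed without WR_S replicate 1 (-1.53), without WR_S replicate 3 (-1.16), with YR_S replicate 2 left out (-1.14) or with YR_S replicate 3 left out (-1.71). In these fits the fold held and the unadjusted p with edgeR was 0.0728 to 0.118. The fold change was lower still without YR_S replicate 1 (-2.24). The other, cgr-miR-1260_R+2_1ss13CT, has 2 bases after the CCA. Its counts were 0 in all YR_S libraries, against 7, 3.5 and 2.5 in WR_S (unadjusted p = 0.026, adjusted p = 0.353 with edgeR). Its WR_S mean of 0.874 CPM lies below the 1.15 CPM that a count of 3 in each YR_S library would give, so no fold is given. It did not pass without WR_S replicate 1 (unadjusted p = 0.0536), without WR_S replicate 2 (0.0542) or without YR_S replicate 3 (0.0519), nor under DESeq2 (0.093), the replicate block (0.152) or the filter at 1 library (0.0688).

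The ratio of miR-1260 to miR-2478 varied less between libraries than either sum. Per 100 CPM of miR-2478 there were 57.8, 59.2 and 50.9 CPM of miR-1260 in YR_S, against 68.0, 67.9 and 69.7 CPM in WR_S, so that WR_S replicate 2, low in both numbers, kept the ratio of the other WR_S libraries. The mean ratio was 56.0 ± 4.43 in YR_S and 68.5 ± 1.03 in WR_S (SD, n = 3 each) without overlap. This ratio too was chosen after the sums were seen and has no test.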

How the data were processed

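Small RNA of 3 YR_S and 3 WR_S dorsal skins was sequenced single-end from TruSeq libraries. The authors removed adapter dimers, junk, repeats, rRNA, tRNA and other structural RNA with ACGT101-miR before matching tags to miRBase; settings and mismatch limits are not given in the sources used here. They deposited an estimated count per entry and library, with shared reads divided in a way not stated (45.9% of members' values above 0 were not whole, tolerance 1e-06), and a normalized signal, the count times 1 factor per library. Their fold changes and p-values were not used. The table had 1 line without a name.

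Counts were rounded, and entries above 0 in at least 3 of 6 libraries (1085) were tested with edgeR 4.0.16 (quasi-likelihood, TMM, two-sided, Benjamini-Hochberg over all entries, R 4.3.3). The same fit was run on simulated counts with large changes only, which does not show its power for the smaller changes given here. The study's methods name DESeq2 (1.42.0), which was an alternative beside limma 3.58.1 on log2(deposited signal + 1), other scalings, other filters, a block for the replicate number, identical counts taken once, and each library left out. Background shares count items with distinct counts. Standard errors given with edgeR were derived from its test, as the size of the log2 fold change over the square root of the F statistic. Those of DESeq2 are its own estimates. Entries named in the text were the 3 most abundant of each number, those in the study's networks, and up to 10 higher and 10 lower past the thresholds; others were picked after their values were seen. Members and lists were chosen with earlier results of these data known. Sequences are those of the deposited table, with T for U.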

Additional observations from a re-analysis of the deposited data

How the results depend on the processing

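The count of items past the study's thresholds was 6, and 4 to 6 under the 7 alternatives that kept all libraries and 4 to 9 with each library left out; the share over the whole table was 5.86 to 9.3%. The number with an adjusted p below 0.05 was 0 except under DESeq2, which called 2 (1 higher, 1 lower). The lower, mmu-mir-6236-p5_8 (adjusted p = 0.0475 with DESeq2), was adjusted with each of its 6 identical entries counted. With each library left out, log2 fold changes spanned 0 for mmu-mir-6240-p5_1ss19GT (-0.76 to 0.08), mmu-mir-6240-p5_1ss2TG (-0.59 to 0.17), bta-miR-11980_L-1R-1_1ss4CG (-0.20 to 0.97) and hsa-miR-4454_L-2_1ss8AG (-0.96 to 0.23); the cause was not tested. Of 245 fold changes of named entries recomputed under alternatives, 213 kept direction and side of the threshold, 18 lost and 6 gained a call, and 8 changed sign. Sums are not in this count. The log2 ratio of the sum of all items turned from -0.08 to 0.03 without WR_S replicate 3 and to 0.09 without YR_S replicate 2. For miR-4454 it turned from -0.19 to 0.16 and 0.26 with the same libraries left out. bta-miR-11987_L-1R-1_1ss8TA, mmu-mir-6236-p5_8 and mmu-mir-6236-p3_10 passed the thresholds under all 13 alternatives. The median log2 fold change of all entries tested was -0.03, and over the alternatives -0.01 to -0.22, lowest with the filter at 1 library and without YR_S replicate 3 (both -0.22). With limma on the deposited signal (-0.19) and with identical counts taken once (-0.18), 1 item passed as higher and 4 as lower (over the table, 1.42% and 7.88% with limma, and 1.64% and 6.24% with identical counts taken once).

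With the replicate number as a block, 5 items passed, 2 higher (1.97% over the table in that fit) and 3 lower (4.05%). Deviations of same-numbered libraries correlated at 0.116, 0.0553 and 0.223, so the numbers were not taken to pair the samples, although every library correlated best with its own number. Depth limits the scarce entries: in YR_S replicate 1 a count of 3 stood for 1.95 CPM.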

Other observations

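Other listed entries of 18 bases also ended in CCA, 9 in number, among them oni-miR-7550 and hsa-miR-4286_R+1 (CCA in capitals).
oni-miR-7550: atccggctcgaaggaCCA
hsa-miR-4286_R+1: accccactcctggtaCCA
pal-miR-9993a-3p_1ss9GA: atctcggtaggacctCCA
Together the 9 summed to 104, 40.3 and 68.6 CPM in YR_S replicates 1, 2 and 3, against 213, 56.5 and 186 CPM in WR_S, a log2 ratio of the means of -1.10. The 5 entries of miR-1260, miR-2478 and miR-4454 with the same form summed to 225, 143 and 232 CPM in YR_S skins, against 428, 140 and 444 CPM in WR_S (-0.75). Both sums overlapped between groups, and in both replicate 2 was the lowest library of YR_S and of WR_S. oni-miR-7550 had 52.7, 17.9 and 25.6 CPM in YR_S skins, against 91.5, 26.1 and 91.5 CPM in WR_S (-1.14, unadjusted p = 0.0822, adjusted p = 0.607 with edgeR). These entries were chosen after their values were seen, by length and end alone, and the sums have no test.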
